A study of Mus musculus with 4 samples.

Results

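The 10 genes followed here belong to the hepatic acute phase response and were chosen by name, to be compared in mouse liver with and without hemojuvelin. They are the pentraxins Apcs and Crp, the serum amyloid A genes Saa1 and Saa4, the carrier protein gene Orm1, the lipopolysaccharide sensor Lbp, the inter-alpha-trypsin inhibitor heavy chains Itih3 and Itih4, the siderophore-binding lipocalin Lcn2, and Socs3, the feedback inhibitor of interleukin-6 (IL-6) signaling. These 10 genes, of 21725 protein-coding genes considered, were found by position: 11 and 10 assembled loci touched exons of their coding transcripts in wild type replicates 1 and 2, and 12 and 10 in knockout replicates 1 and 2. All 10 had a value in every library, and 8 of them had loci spanning enough of the transcript in all 4 libraries to be tested, the exceptions being Lcn2 and Socs3.

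Liver RNA came from male mice on a C57BL/6 background: 2 libraries are wild type and 2 are knockout, with both hemojuvelin alleles disrupted. Hemojuvelin is the co-receptor through which bone morphogenetic proteins induce hepcidin in hepatocytes. Both groups ate the low iron AIN-93G diet, with 2.5 ppm of iron, from 5 weeks of age for 50 days, and livers were taken at 12 weeks. The labels do not state that each library is a separate animal, so the spread and every p-value below measure differences between these libraries. Values are scaled FPKM (fragments per kilobase of transcript relative to all mapped fragments, divided by a library factor), a scale on which genes can be compared per length. Differences are in log2(scaled FPKM + 1), knockout minus wild type. Where values are given in pairs, replicates 1 and 2 are in that order, wild type first and knockout after the word against. Depth, from the step between confidence bounds, was 86.9 and 51.3 M fragments against 55.0 and 132 M.

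The targeted gene (Hjv, named Hfe2 in the annotation) was at 9.24 and 29.7 scaled FPKM in wild type, without a usable locus in knockout replicate 1 and at 0.237 in knockout replicate 2. Hepcidin (Hamp), which hemojuvelin keeps up, was at 22.0 and 100 in wild type, without a usable locus in knockout replicate 1 and at 1.62 in knockout replicate 2. A gene without a locus is not a gene at 0 in these files: albumin and the serpin Serpina1a, among the most abundant hepatocyte transcripts, had no usable locus in any library. The other hepatocyte markers were abundant, with summed levels of 18235 and 17400 against 18987 and 11081, the last without Trf and Cyp2e1, which had no value there. Knockout replicate 2 stood relatively higher than knockout replicate 1 for GC-rich transcripts (Spearman correlation 0.483 across 7946 genes, a description only). The same correlation was 0.271 for wild type replicate 2 over replicate 1 and 0.384 for the knockout minus wild type difference itself.

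The acute phase response is the change in plasma protein synthesis that hepatocytes make during inflammation. IL-6 acts through its receptor and gp130 to activate STAT3, and IL-1 acts through NF-κB and C/EBP factors. Positive acute phase proteins increase, the serum amyloid A proteins and orosomucoid among them, and negative ones such as albumin and transthyretin decrease. In mice serum amyloid P, the product of Apcs, is the pentraxin that responds most to inflammation, whereas Crp, the leading acute phase protein in humans, responds weakly. Hepcidin is itself induced by IL-6 through STAT3, which ties this response to iron handling.

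The promoters of 5 members are shown because they hold, or lack, the letters that these factors are known to bind. Each runs from 250 bases before the RefSeq start site to 50 bases from it (GRCm38.p6), 5′ to 3′ on the strand of the gene. Capitals mark matches on either strand to the STAT3 motif TTCNNNGAA, the IL-6 response element CTGGGAA or the C/EBP motif TTGCNNAA.
Apcs, chr1:172895005-172895304, minus strand: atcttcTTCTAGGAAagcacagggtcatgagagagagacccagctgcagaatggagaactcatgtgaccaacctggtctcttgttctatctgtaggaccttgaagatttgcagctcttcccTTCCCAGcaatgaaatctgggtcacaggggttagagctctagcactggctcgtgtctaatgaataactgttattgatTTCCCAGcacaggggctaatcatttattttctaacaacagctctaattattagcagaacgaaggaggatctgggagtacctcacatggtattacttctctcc
Crp, chr1:172697806-172698105, plus strand: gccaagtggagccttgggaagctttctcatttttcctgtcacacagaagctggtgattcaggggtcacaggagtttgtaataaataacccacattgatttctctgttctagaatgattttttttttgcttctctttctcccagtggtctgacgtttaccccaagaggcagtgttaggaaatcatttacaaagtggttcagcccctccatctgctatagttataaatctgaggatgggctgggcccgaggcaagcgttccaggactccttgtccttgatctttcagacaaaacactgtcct
Saa1, chr7:46742931-46743230, minus strand: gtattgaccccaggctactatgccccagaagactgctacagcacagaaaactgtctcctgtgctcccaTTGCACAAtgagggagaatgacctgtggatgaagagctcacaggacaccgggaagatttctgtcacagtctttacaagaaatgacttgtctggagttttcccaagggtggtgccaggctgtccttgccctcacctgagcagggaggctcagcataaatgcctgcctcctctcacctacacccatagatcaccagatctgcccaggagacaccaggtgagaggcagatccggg
Itih4, chr14:30886226-30886525, plus strand: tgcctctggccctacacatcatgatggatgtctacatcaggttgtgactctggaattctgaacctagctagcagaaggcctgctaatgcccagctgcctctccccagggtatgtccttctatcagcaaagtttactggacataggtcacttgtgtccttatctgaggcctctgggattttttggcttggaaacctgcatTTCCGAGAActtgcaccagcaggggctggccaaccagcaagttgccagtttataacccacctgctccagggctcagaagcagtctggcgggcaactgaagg
Socs3, chr11:117969317-117969616, minus strand: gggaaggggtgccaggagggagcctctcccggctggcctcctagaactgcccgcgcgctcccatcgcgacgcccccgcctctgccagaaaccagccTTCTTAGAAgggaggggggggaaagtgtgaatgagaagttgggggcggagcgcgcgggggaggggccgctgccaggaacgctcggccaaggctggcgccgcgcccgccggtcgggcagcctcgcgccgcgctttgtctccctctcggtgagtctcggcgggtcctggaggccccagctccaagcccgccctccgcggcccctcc

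Apcs held 1 match to the STAT3 motif, beginning 244 bases before the start site, and 2 matches to the IL-6 response element, beginning 129 and 52 bases before it. The Crp window held no match to any motif searched. Saa1 held a C/EBP match 182 bases before its start, Itih4 a STAT3 match at 51 bases and Socs3 a STAT3 match at 154 bases. The Socs3 window lies wholly inside the gene as annotated here (117966079 to 117970047), downstream of that annotation's start. Its match is therefore before the RefSeq start site only. Of the other members with a sequence, Saa4 held 2 C/EBP matches and Lcn2 held 1, while Itih3 held none. Such matches are common, since 8.30% of 32851 RefSeq promoters of this length held the STAT3 motif, 11.1% the IL-6 response element and 10.8% the C/EBP motif. An NF-κB motif and an HNF1 motif, in 1.63% and 0.399% of promoters, were in no member with a sequence. Orm1 and Lbp were not matched in the promoter table. A match describes letters in the window and shows no binding, and a window without a match shows nothing about the factor.

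Apcs, which encodes serum amyloid P component, was the 1 tested member with both knockout libraries above both wild type libraries. The gene (chromosome 1, 172893961 to 172895041 on GRCm38, minus strand, 2 exons) measured 52.5 and 57.3 scaled FPKM against 164 and 200. The lowest knockout library was 2.85 times the highest wild type library, and the means were 54.9 ± 3.41 and 182 ± 25.6 (SD, n = 2 each), a ratio of 3.31. The log2 difference was 1.70 (SE 0.20), and limma gave an adjusted p of 0.246 over the 7931 genes tested, so Apcs did not pass the threshold of 0.05. Its unadjusted p by limma was 0.000413, the twelfth smallest.

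Each library covered Apcs with a single locus spanning 89.1% to 91.5% of the transcript, resting on about 3096 and 1943 fragments against 7749 and 17439. The deposited confidence bounds, which cover error within a library, ran from 38.1 to 45.3 FPKM over the wild type libraries and from 150 to 163 over the knockout libraries, far apart. The deposited FPKM of this short transcript lay above its own confidence bounds in all 4 libraries, for instance 49.0 in wild type replicate 1, where the bounds were 38.1 and 42.2, and 197 in knockout replicate 1, where they were 154 and 163. Taking the midpoint of the bounds in place of FPKM left the log2 difference at 1.69. Without knockout replicate 1 the log2 difference was 1.85, in a fit where the lone knockout library is assumed to vary like the wild type pair. Over all alternatives the difference lay between 1.56 and 1.91. In the alternatives that kept all 4 libraries, limma's adjusted p lay between 0.137 and 0.877.

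Crp, which encodes C-reactive protein, lay on the opposite side. Its coding exons (chromosome 1, gene 172698055 to 172833031, plus strand) carried a locus of 313 and 259 scaled FPKM against 170 and 155. Both knockout libraries lay below both wild type libraries, with means of 286 ± 38.0 and 163 ± 10.1 (SD, n = 2 each). By limma the log2 difference was -0.81 (SE 0.21), the adjusted p 0.408 and the unadjusted p 0.0117. Values as deposited, without the library factor, gave -0.60, and the groups did not overlap there either.

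Apcs and Crp share 60.2% of their aligned coding bases and no identical stretch longer than 12 bases. Within a library, the ratio of Apcs to Crp does not depend on the library factor. That ratio was 0.168 and 0.221 against 0.965 and 1.29. It was 4.36 to 7.66 times higher in a knockout than in a wild type library, depending on the pair. An exact permutation test of this ratio could not reach a two-sided p under 0.33 with so few libraries, and none was run.

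**Figure D1:**
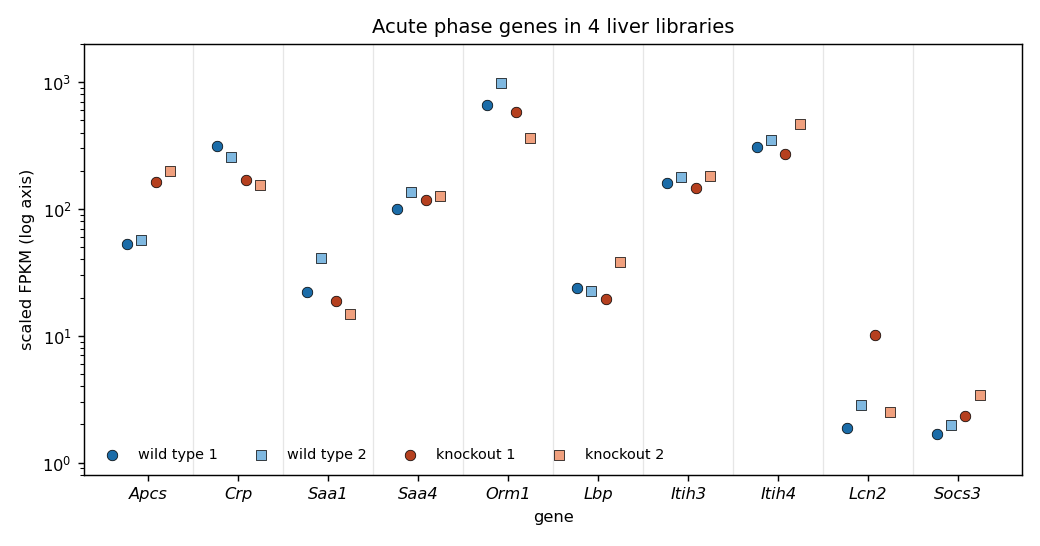
Scaled FPKM of the 10 members (log axis) in each of the 4 libraries, 1 point per library, blue for wild type and red for knockout, with dark circles for replicate 1 and light squares for replicate 2. Apcs is at 164 and 200 in knockout against 52.5 and 57.3 in wild type, while Crp, Saa1 and Orm1 lie lower in both knockout libraries.

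The serum amyloid A genes encode apolipoproteins of high density lipoprotein, of which Saa1 is strongly inducible and Saa4 is expressed constitutively. Saa1 (chromosome 7, 46740497 to 46742980, minus strand) measured 22.1 and 40.8 scaled FPKM against 18.7 and 14.8. The knockout pair lay wholly below the wild type pair, by -0.81 on the log2 scale (SE 0.34, adjusted p = 0.473 by limma). The wild type pair differed by a ratio of 1.84, and without wild type replicate 2 the difference was -0.39. As deposited the groups overlapped, at 20.7 and 37.3 FPKM against 22.5 and 14.1. The 37.3 lay above its bounds of 25.2 and 30.9, and the 22.5 above its bounds of 14.2 and 18.0. At the midpoints of the bounds the deposited values did not overlap, at 20.7 and 28.0 against 16.1 and 14.1. From scaled midpoints the log2 difference was -0.83.

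Saa1 and its neighbor Saa2, also an inducible gene, share 95.1% of their coding bases and an identical stretch of 99 bases, so the division of reads between them is uncertain. Saa2 pointed the same way, at 13.4 and 24.7 against 8.51 and 7.46. Saa3, which macrophages also make, measured 5.15 and 5.34 against 2.76 and 3.50, and neither gene passed limma over all genes (adjusted p = 0.418 and 0.438).

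Saa4 (chromosome 7, 46727998 to 46732603, minus strand) measured 99.6 and 137 scaled FPKM against 118 and 126. The knockout libraries lay between the wild type libraries. Its log2 difference of 0.06 (SE 0.23) became -0.16 without wild type replicate 1, so it had no stable sign.

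Orm1, which encodes the plasma carrier alpha-1-acid glycoprotein (orosomucoid), was the most abundant member by group means, though Itih4 stood above it in knockout replicate 2. It lies on chromosome 4 (63344560 to 63348163, plus strand) and measured 659 and 991 scaled FPKM against 582 and 360. The groups did not overlap, but knockout replicate 1 and wild type replicate 1 were close, and as deposited they overlapped at 615 and 906 against 700 and 343 FPKM. By limma the log2 difference was -0.82 (SE 0.35, adjusted p = 0.482), and it was -0.52 without wild type replicate 2, and -0.47 without knockout replicate 2. Orm1 shares 89.9% of its coding bases with Orm2 and an identical stretch of 141 bases. Orm2, at 17.4 and 14.6 against 6.36 and 10.5, went untested since only 49.9% of its transcript was spanned in knockout replicate 1.

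Lbp encodes the plasma protein that hands bacterial lipopolysaccharide to CD14. It lies on chromosome 2 (158306493 to 158332852, plus strand) and measured 23.6 and 22.7 scaled FPKM against 19.6 and 38.3. The knockout libraries lay on opposite sides of the wild type pair. Its log2 difference was 0.24 (SE 0.34) with all libraries and -0.23 without knockout replicate 2.

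Itih3 encodes a heavy chain that stabilises hyaluronan-rich matrix, and Itih4 encodes a related chain and responds to IL-6. The pair lies side by side on chromosome 14, Itih3 at 30908572 to 30923760 on the minus strand and Itih4 at 30886476 to 30902353 on the plus strand. Itih3 measured 159 and 178 scaled FPKM against 147 and 183, and its log2 difference of -0.03 (SE 0.21) was 0.17 on the values as deposited. Itih4 measured 309 and 347 against 269 and 469, and its log2 difference of 0.12 (SE 0.32) was -0.28 when knockout replicate 2 was left out. The groups overlapped for Itih3 and for Itih4. On the values as deposited the knockout pair stood wholly above the wild type pair for Lbp, Itih3 and Itih4.

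For Lbp and Itih4 knockout replicate 2 stood above knockout replicate 1 by ratios of 1.96 and 1.74, and the GC content of their transcripts was 53.2% and 52.1%. For Apcs and Crp the same ratio was 1.22 and 0.916, with a GC content of 43.8% and 42.1%. For the other tested members the ratio was 0.620 for Orm1 (49.0%), 1.07 for Saa4 (49.3%), 0.791 for Saa1 (51.4%) and 1.24 for Itih3 (51.7%). The part of GC content in these ratios was not tested. With each library corrected for GC content the log2 difference was 1.80 for Apcs, -0.71 for Crp, 0.14 for Lbp and 0.07 for Itih4.

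Lcn2 and Socs3, the members that rest on the fewest fragments, were near the lower end of detection. Lcn2 (chromosome 2, 32384633 to 32388252, minus strand), which binds bacterial siderophores that carry iron, measured 1.88 and 2.86 scaled FPKM against 10.2 and 2.49. Only knockout replicate 1 stood apart, and there the value came from a locus over 30.4% of the transcript with about 71.5 fragments, whose FPKM of 12.3 lay above its bounds of 3.23 and 6.19. In the other 3 libraries the loci spanned 94.3% to 96.5%. No direction can be given for Lcn2.

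Socs3 (chromosome 11, 117966079 to 117970047, minus strand), which STAT3 induces and which blocks gp130, measured 1.69 and 1.99 scaled FPKM against 2.31 and 3.41. The knockout pair stood above the wild type pair by small amounts. The loci covered 45.7%, 66.5% and 47.5% of the transcript, all within its last exon, in wild type replicates 1 and 2 and knockout replicate 1, and 99.1% over both exons in knockout replicate 2, the most deeply sequenced library. When transcripts spanned to at least 25% were admitted, limma gave Socs3 a log2 difference of 0.42 (SE 0.25, adjusted p = 0.588) and Lcn2 one of 0.90 (SE 0.57, adjusted p = 0.606).

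**Figure D2:**
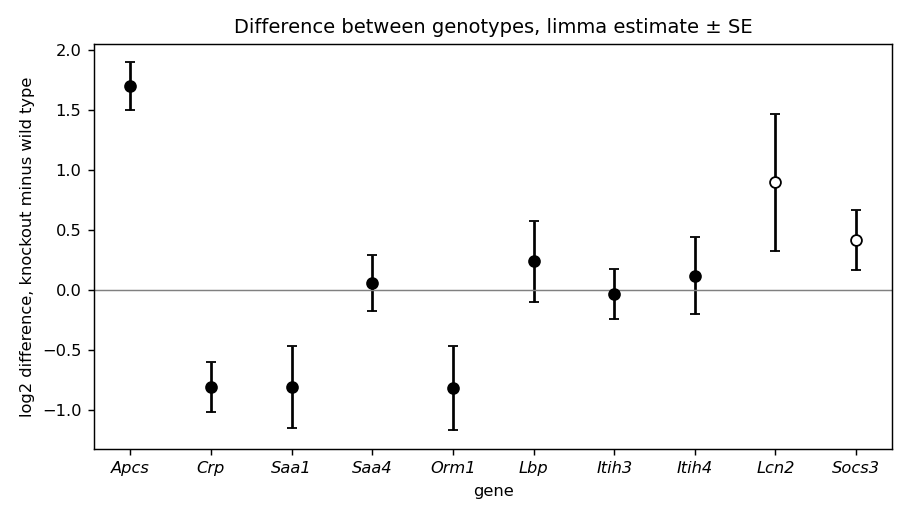
Log2 difference between the genotypes for each member, knockout minus wild type, with the standard error from limma as bars. Filled points are the 8 members tested, open points Lcn2 and Socs3 when transcripts spanned to at least 25% were admitted; Apcs is at 1.70, and Crp, Saa1 and Orm1 are near -0.8.

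The question was whether Apcs and Crp move with the rest. Of the 8 members tested 0 passed limma at an adjusted p under 0.05 in either direction, against a background of 0% of 7931 genes. At an unadjusted p under 0.05 there was 1 higher, Apcs, against 5.75% of all genes, and 1 lower, Crp, against 5.26%. By limma Crp was not under that level with values as deposited (unadjusted p = 0.0737), nor when wild type replicate 1 (0.140) or 2 (0.0583) was left out. Groups that did not overlap were found for 1 member higher in knockout, against 22.4% of all genes, and for 3 lower (Crp, Saa1 and Orm1), against 23.7%. In either direction these were 4 of 8 members, against 46.0% of all genes, and the other 4 overlapped. A difference of at least 2-fold without overlap was found for Apcs (1 member higher, against 4.65% of all genes) and for 0 members lower (against 1.66%).

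With values as deposited the split was 4 higher (Apcs, Lbp, Itih3 and Itih4) and 1 lower (Crp), against 36.6% and 8.56% of all genes. The median log2 difference of all genes tested was 0.19 without the library factors and 0.02 with them. Apcs and Crp kept their sides under both scales. The median log2 difference of the 8 members was 0.01, near the 0.02 of all genes tested, and was 0.22 on the values as deposited and -0.26 without knockout replicate 2. The 7 members other than Apcs had log2 differences from -0.82 to 0.24, with a median of -0.03, so Apcs at 1.70 lay outside their range and Crp at its lower end beside Saa1 and Orm1.

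The same values can also be ordered by level. In wild type the mean level ran down from Orm1 (825) through Itih4 (328), Crp (286), Itih3 (169) and Saa4 (118) to Apcs (54.9), Saa1 (31.5) and Lbp (23.1), with Lcn2 and Socs3 under 3 scaled FPKM. Itih4 and Crp, Saa1 and Lbp, and Lcn2 and Socs3 were neighbors in this order whose libraries overlapped. In knockout Apcs (182) stood next to Itih3 (165) and Crp (163), and the libraries of these 3 genes overlapped. This order depends on the use of FPKM, which for Apcs, Crp and Orm1 lay above the confidence bounds in every library. At the midpoints of the bounds, as deposited, knockout Apcs (159 and 153) lay below Itih3 (180 and 177).

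The tested genes closest to Apcs in pattern over the 4 libraries, each centred on its own mean, were Extl1, Aldh2 and Sap30l, with root mean square log2 differences of 0.0791, 0.0924 and 0.145. Those closest to Crp were Myadm, Lipg and Pctp, at 0.0389, 0.0442 and 0.0519. None of these is a member. Crp lay at 1.27 from Apcs, against 0.363 from Orm1 and 0.403 from Saa1. With 4 libraries many genes share a pattern, and Orm1 held only rank 2060 among the genes most like Crp.

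The wider acute phase list held 38 proteins besides the members, of which 21 were tested and 0 passed limma over all genes. Both knockout libraries were above both wild type libraries for 5 genes and below them for 5, beside 22.4% and 23.7% of all genes. As deposited the counts were 7 and 4, beside 36.6% and 8.56%, and on scaled values the median log2 difference was 0.09, or -0.29 without knockout replicate 2. Lrg1, a leucine-rich glycoprotein induced by IL-6, measured 12.3 and 15.8 scaled FPKM against 23.1 and 86.4 (adjusted p = 0.453 by limma). Haptoglobin (Hp), which binds free hemoglobin, overlapped at 334 and 448 against 403 and 937. Of the fibrinogen chains Fgg measured 1370 and 1307 against 925 and 511, while Fgb, spanned to about 40.1% at most and not tested, measured 1448 and 1526 against 984 and 1720.

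The closely related serpins Serpina3n and Serpina3m, named after their values were seen, belong to a family of near copies whose reads may be divided in error. Serpina3n was at 96.2 and 110 in wild type and Serpina3m at 71.7 and 94.1. In knockout replicate 1 they were at 214 and 400, and in knockout replicate 2 neither had a usable locus, so no test was made. The far more abundant Serpina3k of the same family lay the other way, with wild type values of 6549 and 6897. It was at 2424 in knockout replicate 1 and again had no usable locus in knockout replicate 2. Serpina3c was at 3.17 in wild type replicate 1 and had no value in wild type replicate 2. In knockout it measured 1254 and 951, from loci over only 17.5% and 43.8% of its transcript. How reads were divided within this family was not tested.

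The core components of IL-6 signaling did not pass the test. The receptor Il6ra measured 5.26 and 7.38 scaled FPKM against 5.69 and 7.12, and its log2 difference of 0.03 was -0.70 when the highest locus stood for the gene. The shared signaling chain Il6st (gp130) measured 19.7 and 19.1 against 17.1 and 23.2. Stat3, the transcription factor of the pathway, measured 13.2 and 13.9 against 15.4 and 19.8, without overlap, and its log2 difference was 0.35 (SE 0.20, adjusted p = 0.553 by limma), or 0.18 without knockout replicate 2. Cebpb, a C/EBP factor that acts with it, was spanned to 30.2% to 97.5% and not tested, at 32.3 and 91.4 against 74.7 and 42.6.

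Of the 19 tested genes of the IL-6 and STAT3 list 0 passed limma over all genes. The knockout pair stood wholly above the wild type pair for 9 (22.4% of all genes did) and below it for 2 (23.7% of all genes). Lifr, Fgl1 and Lrg1, among these 9, are also among the 5 counted as above in the wider acute phase list. With values as deposited the counts for the IL-6 and STAT3 list were 15 and 2, beside 36.6% and 8.56% of all genes. The median log2 difference was 0.21, or 0.08 without knockout replicate 2 and 0.33 without knockout replicate 1. Socs2, an inhibitor that growth hormone induces through STAT5, had the largest difference among the tested genes of the list. It measured 2.93 and 1.56 against 16.1 and 10.3 (log2 difference 2.13, SE 0.33, adjusted p = 0.297 by limma). Cish, another STAT5 target of the same family, was named after its values were seen and measured 2.77 and 1.35 against 12.5 and 13.7, untested because less than 50% of the transcript was spanned in 2 libraries. Lifr, the receptor for leukemia inhibitory factor, measured 33.0 and 26.5 against 46.5 and 119, so knockout replicate 2 was far above the other 3 libraries, as for Lrg1. Without that library the log2 difference was 0.64 for Lifr and 0.69 for Lrg1, against 1.30 and 1.62 with it, and -0.53 for Fgg, against -0.96. Without knockout replicate 1 the log2 difference was 1.97 for Lifr, 2.55 for Lrg1, 1.83 for Socs2 and -1.39 for Fgg.

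Of the IL-1 and NF-κB list 18 were tested and 0 passed limma over all genes. The groups were apart for 5 higher and 2 lower in knockout (7 and 2 as deposited), beside 22.4% and 23.7% of all genes (36.6% and 8.56% as deposited), and the median was 0.13, or -0.01 without wild type replicate 1. Cxcl1, a neutrophil-attracting chemokine, measured 5.34 and 8.51 scaled FPKM against 1.31 and 1.90 (log2 difference -1.59, SE 0.28, adjusted p = 0.346 by limma). The NF-κB subunit Rela measured 5.54 and 4.86 against 6.07 and 14.8. Of 17 negative acute phase proteins 14 were tested, with 0 past the threshold of limma. Without overlap 5 were higher and 3 lower (8 and 1 as deposited), beside the same shares of all genes, with a median of 0.26, or -0.05 without knockout replicate 2. Igfals, which carries insulin-like growth factors, measured 6.00 and 5.83 against 9.79 and 29.9, and Serpina7, the thyroxine-binding globulin, 46.3 and 21.0 against 15.7 and 14.5.

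**Figure D3:**
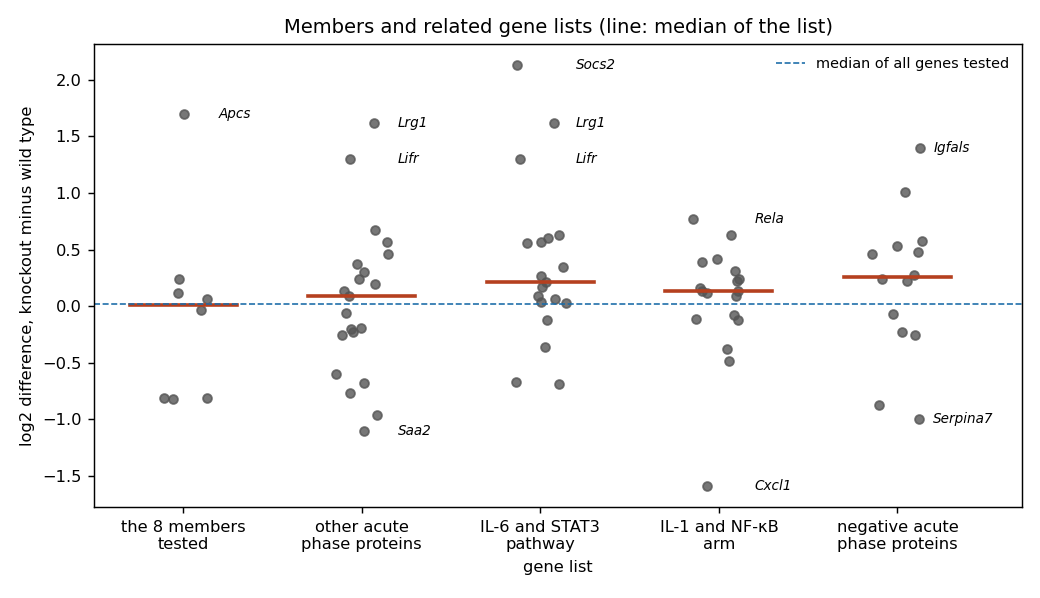
Log2 difference, knockout minus wild type, of each tested gene in the members and in the 4 related lists, with the list's median as a red line and the median of all genes tested as a dashed line. Medians lie between 0.01 and 0.26, and labels mark the genes named by the rule of 2-fold groups apart, with Apcs.

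Immune cells can supply part of Saa3, Lcn2 and Cxcl1, and in bulk tissue fewer cells of a type and less RNA per cell cannot be told apart. Of 10 tested Kupffer cell and macrophage markers 4 were lower without overlap (23.7% of all genes were) and 0 higher (22.4% of all genes). As deposited 4 were lower and 1 higher, beside 8.56% and 36.6% of all genes. Vsig4 measured 22.4 and 24.7 against 13.0 and 14.4, and its log2 difference of -0.74 was -0.29 with the loci summed. The summed level of the Kupffer cell and macrophage list was 156 and 192 against 121 and 187. The neutrophil and monocyte list summed to 5.67 and 12.4 against 6.92 and 7.15, and its defining genes Ngp, Camp, Ltf, Mpo, Elane and Ly6g had no locus in any library. These sums cover different genes, since S100a8 (5.49 in wild type replicate 2) had no value in the first replicate of either genotype, and Ccr2 (3.26 in knockout replicate 1) was spanned to 10.4% there. The part of these cells in the values of Saa3, Lcn2 and Cxcl1 was not tested. Of the adipose markers only Fabp4, which macrophages also express, had a locus, at 50.5 and 38.9 against 6.06 and 4.54, with an adjusted p of 0.156 by limma.

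Apcs and Crp lie 197 kb apart by start site on chromosome 1, and their neighbors did not share a direction. Within 1000 kb of Apcs 13 genes were tested, Apcs and Crp included, of which 4 were higher and 6 lower in knockout without overlap, beside 22.4% and 23.7% of all genes. Dusp23, a phosphatase gene beside Crp at 262 kb from Apcs, measured 7.03 and 7.15 scaled FPKM against 3.66 and 2.82, a log2 difference of -0.94 (SE 0.20) beside -0.81 for Crp. Copa, at 813 kb from Apcs and chosen after its values were seen, was as low, at 50.5 and 52.8 against 25.7 and 32.5 (log2 difference -0.82). No other tested gene in the window had a difference as large as that of Apcs.

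**Figure D4:**
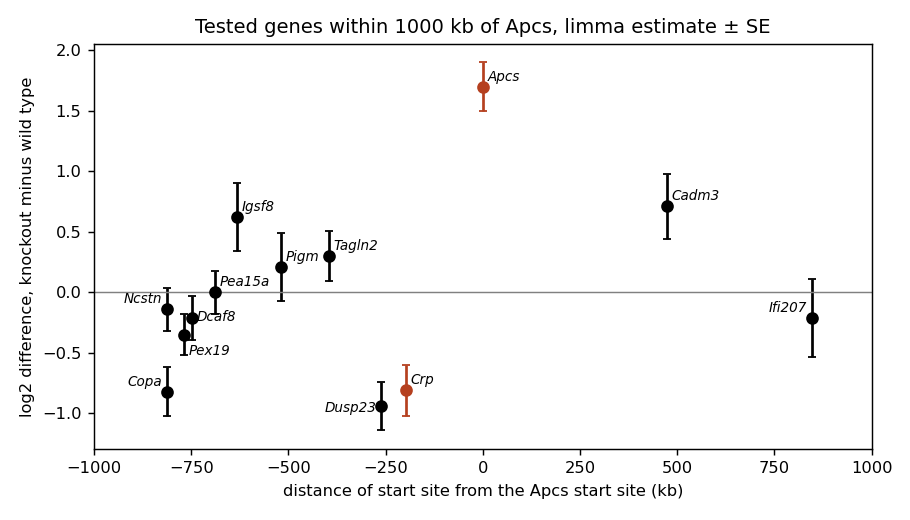
Log2 difference, knockout minus wild type, with the standard error from limma, of the 13 tested genes within 1000 kb of Apcs, against the distance of their start sites from that of Apcs. Apcs at 1.70 stands above the others, and Crp at -0.81, Dusp23 at -0.94 and Copa at -0.82 are the lowest.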

How the data were processed

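Liver RNA was made into TruSeq libraries and sequenced on an Illumina HiSeq, per the labels' protocols. The submitters' processing notes name FastQC, TopHat, Cufflinks and the build mm9, without versions. The deposited FPKM and confidence bounds were made by the authors for loci assembled separately in each library, per the file headers, with coordinates and no gene names. Coordinates were placed on GRCm38 (GENCODE M21), where the loci of the 8 tested members spanned 89.1% to 100% of the transcript. No mm9 annotation was used here. The members, lists and tests were chosen with earlier results of these data known.

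Each locus went to the protein-coding gene whose exons it covered most. At least 50% of its length had to lie within that gene, a second gene could hold at most 25% as many bases, and a locus touching 1 exon had to be at least 50% exonic. Loci whose FPKM was over 3 times the midpoint of their bounds were not used (3 short loci of Lcn2 and Socs3), nor were 2 loci on a noncoding Crp transcript. Loci of a gene were averaged with exonic bases as weights, and the gene was tested if they spanned at least 50% of a coding transcript in all 4 libraries. Depth is the step between the bounds of loci of 150 to 250 bases, taken as 1 fragment (99.3% to 99.9% of bounds whole within 0.05), so fragments per gene are approximate.

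Scaling was by median of ratios (factors 0.934 and 0.914 for wild type, 1.20 and 0.951 for knockout), and genes at 1 FPKM or more in at least 2 libraries were kept. The test was limma 3.58.1 in R 4.3.3 on log2(scaled FPKM + 1) with a trend of variance on mean (2 residual degrees of freedom, 2.93 prior), two-sided and adjusted by Benjamini-Hochberg over 7931 genes. The script was tested on simulated data. This scale understates changes of low genes. The labels do not say whether the libraries kept strand. Genes named beyond the members are those of the lists and markers with groups apart by at least 2-fold, up to 6 per list, then Il6ra, Il6st, Stat3, Cebpb, Hp and Fgb, the 3 genes nearest in pattern to Apcs and to Crp, and Hjv and Hamp. Saa3, Fgg, Fgl1, Orm2, Cish, Serpina3n, Serpina3m, Serpina3k, Serpina3c, Vsig4, Copa and Dusp23 were picked after seeing their values.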

Additional observations from a re-analysis of the deposited data

How the results depend on the processing

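For Apcs, Crp, Saa1 and Orm1 the sign of the log2 difference was the same under all 20 alternatives, whose values lay between 1.56 and 1.91 for Apcs, -0.94 and -0.60 for Crp, -1.24 and -0.39 for Saa1, and -1.16 and -0.47 for Orm1. Apcs passed the adjusted threshold only without knockout replicate 1 (log2 difference 1.85, adjusted p = 0.0175 by limma), and leaving out 1 library gave 1.56 to 1.85. Over all genes, limma called 0 higher and 0 lower with all libraries. It called 1 higher with values as deposited. Leaving out 1 library gave 0 to 412 higher and 1 to 143 lower, the most without knockout replicate 1, when Rela (1.35), Igfals (2.16), Fabp4 (-3.03) and Dusp23 (-1.08) also passed. It gave 11 higher and 4 lower without knockout replicate 2, when Fabp4 (-2.68) passed and Rela and Igfals were at 0.19 and 0.64. At an unadjusted p under 0.05 the counts were 456 higher and 417 lower, 876 and 132 as deposited, and 536 and 374 when the replicate block was fitted. Leaving out 1 library moved them to between 121 and 1323 higher and between 124 and 800 lower.

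Leaving out 1 library gave -0.16 to 0.29 for Saa4, -0.23 to 0.70 for Lbp, -0.19 to 0.12 for Itih3, -0.28 to 0.52 for Itih4, -0.18 to 0.24 for Il6ra and -0.17 to 0.25 for Il6st. Saa4 was negative without wild type replicate 1, and Lbp, Itih4 and Il6st without knockout replicate 2. Itih3 turned to 0.17 as deposited, 0.06 under quantile normalization, 0.01 where 80% of a transcript had to be spanned, 0.05 without wild type replicate 2 and 0.12 without knockout replicate 1. Il6ra turned to -0.06 under quantile normalization, -0.70 with the highest locus, -0.50 with the loci summed, -0.18 without wild type replicate 1 and -0.11 without knockout replicate 2. The cause of these reversals was not tested.

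Same-numbered libraries deviated from their group means with a correlation of 0.0838. Replicate 2 stood relatively higher than replicate 1 for GC-rich transcripts in both genotypes (Spearman correlation 0.271 in wild type and 0.483 in knockout). Same-numbered libraries share a number in their labels, and whether they share a batch was not tested. The replicate block left 0 genes past the adjusted threshold and Apcs at 1.70. The correction for GC content, alone and with the block, was added after seeing the data and gave 1.80 for Apcs and -0.71 for Crp. It moved Lrg1 from 1.62 to 0.81, Rela from 0.77 to 0.23, Igfals from 1.40 to 0.90 and Hp from 0.67 to 0.36.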
